A study of Mus musculus with 8 samples.

Results

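The 40 genes described here act in G2 and mitosis: Cdk1 with its cyclins, the Polo and Aurora kinases, the chromosomal passenger complex, the spindle checkpoint and the anaphase-promoting complex, kinetochore proteins, spindle motors, cytokinesis proteins, the transcription factors Foxm1 and Mybl2, and the chromatin proteins Mki67 and Top2a. They were taken by name for these functions, not by a measured value, though with earlier results of these data known. All 40 are among the 52636 genes of the count table. All 40 also passed the filter on low counts that left 17327 genes to test, with the lowest member count in any library at 83. The study sequenced spleen RNA from C57BL/6 mice labelled 6 weeks old. Wild-type mice were compared with mice carrying the Lmna R527C mutation, a single amino acid change in lamins A and C of the nuclear lamina. The labels do not give the zygosity, and gene counts cannot show the mutation. Spleens were taken on day 0 without irradiation or on day 7 after 4 Gy of irradiation, which gives 4 groups of 2 libraries: unirradiated wild type, unirradiated mutant, irradiated wild type and irradiated mutant. Nothing in the labels says whether the 2 libraries of a group came from separate mice, and the p-values below are for the variation among these 8 libraries, which may be technical.

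Mitotic genes are expressed in waves: their transcripts are low in resting cells and in G1 and rise through G2, when a cell prepares to divide. In a whole spleen their relative level therefore follows how much of the RNA comes from dividing cells. A higher relative level can mean more dividing cells or fewer other cells, and these cannot be told apart here. The mouse spleen makes red blood cells as well as holding lymphocytes, erythroid precursors divide as they mature, and this production is known to expand when the blood must be rebuilt. In bulk RNA, fewer cells of a type and less RNA per cell cannot be told apart.

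Many G2 and mitosis promoters are known for sharing CCAAT boxes, bound by NF-Y, and a cell cycle genes homology region of sequence TTTGAA, or its variant TTCGAA, through which complexes containing Mybl2 and Foxm1 act. The promoters of 4 highly expressed members that hold both are shown because they let a reader see what the members share apart from their function. Each is the 250 bases before the RefSeq transcription start on build GRCm38.p6, read 5′ to 3′ on the gene's own strand. Capitals mark CCAAT (read ATTGG on the other strand), TTTGAA (read TTCAAA on the other strand) and the variant TTCGAA, a palindrome. They lie at chr7:135716380-135716629 (minus strand) for Mki67, chr11:99024190-99024439 (minus) for Top2a, chr9:70421555-70421804 (minus) for Ccnb2 and chr19:37376132-37376381 (plus) for Kif11.
Mki67: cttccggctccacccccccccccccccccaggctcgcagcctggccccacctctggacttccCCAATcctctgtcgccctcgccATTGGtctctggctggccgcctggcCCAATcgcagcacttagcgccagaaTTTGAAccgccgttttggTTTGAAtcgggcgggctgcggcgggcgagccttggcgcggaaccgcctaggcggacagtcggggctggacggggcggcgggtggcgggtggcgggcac
Top2a: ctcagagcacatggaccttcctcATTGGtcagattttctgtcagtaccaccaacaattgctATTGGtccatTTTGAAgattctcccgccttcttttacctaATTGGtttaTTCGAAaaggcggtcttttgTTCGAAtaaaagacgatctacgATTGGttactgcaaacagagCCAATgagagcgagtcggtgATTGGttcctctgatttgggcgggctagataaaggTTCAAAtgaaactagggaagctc
Ccnb2: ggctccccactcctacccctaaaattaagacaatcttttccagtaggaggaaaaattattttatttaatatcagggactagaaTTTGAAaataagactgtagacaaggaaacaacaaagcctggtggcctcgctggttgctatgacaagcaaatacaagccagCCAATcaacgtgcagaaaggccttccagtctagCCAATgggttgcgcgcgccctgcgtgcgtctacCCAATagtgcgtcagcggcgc
Kif11: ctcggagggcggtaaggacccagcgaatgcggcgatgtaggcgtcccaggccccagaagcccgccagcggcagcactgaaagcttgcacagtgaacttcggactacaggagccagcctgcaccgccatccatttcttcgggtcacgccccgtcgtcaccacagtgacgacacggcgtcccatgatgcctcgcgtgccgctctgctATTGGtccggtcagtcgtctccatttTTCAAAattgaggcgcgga
In Mki67, CCAAT boxes begin 188, 166 and 141 bases before the start and TTTGAA begins 116 and 98 bases before it. Ccnb2 has 3 CCAAT boxes, beginning 87, 54 and 21 bases before the start. Its printed TTTGAA begins 167 bases before the start, and another lies just after the start, beyond the printed bases. Kif11 has 1 match of each, 45 and 19 bases before its start. RefSeq windows from 250 bases before to 50 after the start were found for 32 of the 40 members, 34 promoters in all. CCAAT on either strand was in 26 of the 34 (76.5%), against 37.4% of all 32851 promoters of that length. TTTGAA on either strand was also in 26 (76.5%), against 17.9% of all promoters. TTCGAA was in 3 (8.82%), against 1.56%. CCAAT together with TTTGAA or TTCGAA was in 24 (70.6%), against 7.52% of all promoters and 5.86% of those of the genes tested. A match is a run of letters, not evidence of binding.

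Library totals ran from 12100784 to 19455470 counts, so 3 counts, the limit that a count of 0 allows, corresponded to 0.154 to 0.248 counts-per-million. Levels below are counts-per-million (CPM) after TMM scaling, which corrects for differences in library composition, except where a level per kilobase is named. The irradiated libraries differed from the unirradiated ones in sex-linked transcripts: Xist was at 978 to 1252 unscaled CPM in the 4 irradiated libraries and at most 0.31 in the 4 unirradiated ones, while 4 Y-linked genes were at 0 in every irradiated library and at 19.3 or more in every unirradiated one. These are the values of female spleens in the irradiated groups and male spleens in the unirradiated ones, though the labels give no sex. The effects of irradiation and of sex therefore cannot be told apart in any comparison of day 7 with day 0. B cell genes (15) took 0.763 to 1.02% of counts without irradiation and 0.132 to 0.357% after it. Replicate 2 of the irradiated mutants stood apart from replicate 1: its 39 erythroid genes took 0.827% of counts against 5.69%, and its 15 T cell genes 0.206% against 0.018%. Results that rest on this pair are given with and without one of them, except the group differences adjusted for the erythroid share.

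Per kilobase of exon (RPKM, averaged over the 8 libraries), the members ranged from 4.12 for Cdc25c, the phosphatase that activates Cdk1, to 192 for Mki67, which coats mitotic chromosomes. Their median was 18.9 RPKM, against 4.1 over all genes tested. Next after Mki67 came Ube2c, the ubiquitin-conjugating enzyme of the anaphase-promoting complex (186 RPKM), then Ccnb2 (117), Birc5 (112) and Ccna2 (107). The order of RPKM levels was not the same in every group. Mybl2 ranked 22 of 40 in unirradiated wild types and 37 in irradiated ones, and Kif20a ranked 30 and then 38. Ect2 moved the other way, from 37 to 27, and Spc25 from 19 to 14.

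Across the 8 libraries the members varied together, and the extremes were the 2 irradiated mutant libraries. Replicate 1 of the irradiated mutants held the highest value of all libraries for 38 of the 40 genes, and replicate 1 of the irradiated wild types for the other 2. Replicate 2 of the irradiated mutants held the lowest value for 32. The 40 genes together took 0.547 and 0.353% of counts in unirradiated wild types, 0.628 and 0.538% in the unirradiated mutants, 1.19 and 0.7% in the irradiated wild types, and 1.29 and 0.322% in irradiated mutants. Both irradiated wild-type libraries were thus above all 4 unirradiated ones, and the irradiated mutant pair spanned the whole range.

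**Figure D1:**
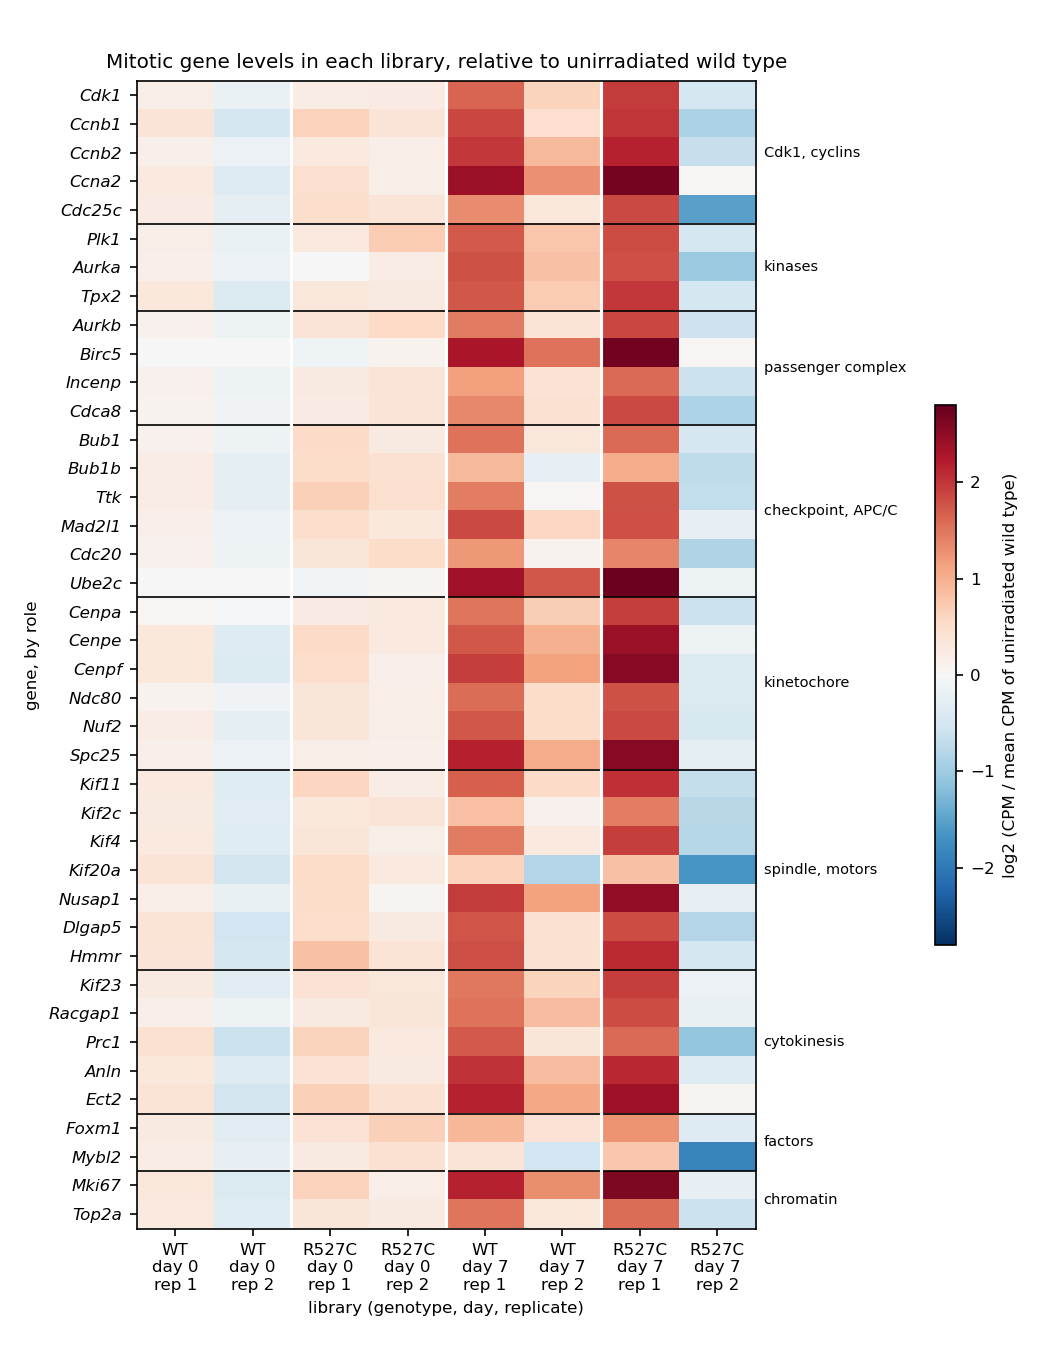
Level of each of the 40 mitotic genes (rows, grouped by role) in each of the 8 libraries (columns), as log2 of its CPM over the mean CPM of the 2 unirradiated wild-type libraries. Red is higher and blue lower; replicate 1 of the irradiated mutants is the highest library for 38 genes and replicate 2 the lowest for 32.

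Irradiation in wild-type mice was examined first, as the response of a spleen with normal lamins. The mean level of 39 of the 40 genes was higher on day 7 than on day 0 (54.2% of all genes were), with a median log2 fold change of 1.22 against 0.09 over all genes tested. For 33 of the 40 both irradiated libraries lay above both unirradiated ones, which was so for 29.7% of all genes. None of the 40 passed the test across all genes (edgeR quasi-likelihood, adjusted p under 0.05; 0.0577% of genes were called), and the smallest adjusted p was 0.251, for Ube2c. At an unadjusted p under 0.05, 4 were higher: Ube2c, Birc5, Ccna2 and Ect2, against 8.69% of all genes. DESeq2 and limma-voom also called none of the 40. The median was 0.52 without irradiated wild-type replicate 1 and 1.67 without replicate 2.

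Marker genes of other cells moved beside these values. Of the 12 granulocyte genes 11 were lower in both irradiated wild-type libraries, as were all 7 granulocyte precursor genes, all 8 megakaryocyte genes and 14 of 15 B cell genes, against 27.8% of all genes. Granulocyte genes took 0.158 to 0.202% of counts in unirradiated wild types and 0.00992 to 0.0196% in irradiated ones. Megakaryocyte genes took 0.0621 to 0.0651% and then 0.0108 to 0.0135%. Of 38 erythroid genes tested 35 were higher without overlap and 1 was lower, where 29.7% of all genes were higher without overlap. Hepatocyte genes (6 of 7 higher) took 7.46e-05 to 0.000103% of counts in unirradiated wild types and 0.00729 to 0.00861% in irradiated ones, with Alb and Fgb at 0 in every unirradiated library. In irradiated mutants all 12 granulocyte, 7 precursor and 8 megakaryocyte genes were lower without overlap (25.7% of all genes), and hepatocyte genes took 0.0328% in replicate 1 and 0.00597% in replicate 2. The part of these cells in the mitotic values was not tested.

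Among Cdk1 and its regulators, Cdk1 itself, the kinase whose activity starts mitosis, was at 126 and 98.2 CPM in the unirradiated wild types, 130.0 and 131 in the unirradiated mutants, 345 and 171 in the irradiated wild types, and 436 and 79.5 in the irradiated mutants. Its partner Ccnb1, a B-type cyclin, stood at 118 and 66.3 CPM in unirradiated wild-type spleens and 144 and 118 in unirradiated mutant spleens, against 335 and 127 in irradiated wild types and 365 and 50.1 in irradiated mutants. Ccna2, the A-type cyclin of S phase and G2, measured 217 and 139.7 CPM (unirradiated wild type), 244 and 200.1 (unirradiated mutant), 936 and 434 (irradiated wild type) and 1145 and 181 (irradiated mutant). For all 3, both irradiated wild-type libraries were above both unirradiated ones, replicate 1 further than replicate 2, while 1 irradiated mutant library was above both unirradiated mutants and the other below both. The wild-type log2 fold change was 1.94 ± 0.80 (SE) for Ccna2 and 1.21 ± 0.71 (SE) for Cdk1, with adjusted p = 0.274 and 0.396 in edgeR's quasi-likelihood test. The 5 genes of this role had a median log2 fold change of 1.33 in wild types, from 0.91 for Cdc25c to 1.94 for Ccna2.

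Plk1, a kinase of centrosome maturation and cytokinesis, was at 61.9 and 48.7 CPM in the unirradiated wild types, 66.7 and 90.6 in the unirradiated mutants, 183 and 95.0 in the irradiated wild types, and 197 and 39.5 in the irradiated mutants. Aurka, the Aurora kinase of the spindle poles, stood at 62.6 and 50.7 CPM in unirradiated wild-type spleens and 56.9 and 65.1 in unirradiated mutant spleens, against 195 and 100.4 in irradiated wild types and 198 and 27.6 in irradiated mutants. Both had irradiated wild-type libraries above the unirradiated ones, with log2 fold changes of 1.33 and 1.38, and Tpx2, the protein that activates Aurka, was similar at 1.32. In the chromosomal passenger complex, which corrects faulty attachments, the 4 subunits differed in size of change. Birc5 (survivin), its targeting subunit, measured 161 and 156 CPM (unirradiated wild type), 146 and 171 (unirradiated mutant), 777 and 455 (irradiated wild type) and 1029 and 163 (irradiated mutant). Aurkb, its kinase, was at 55.3 and 45.9 CPM in the unirradiated wild types, 65.4 and 74.2 in the unirradiated mutants, 138 and 65.8 in the irradiated wild types, and 186 and 33.9 in the irradiated mutants. Birc5 had a wild-type log2 fold change of 1.96 ± 0.75 (SE) and an edgeR quasi-likelihood adjusted p of 0.254. Aurkb, Cdca8 and the scaffold Incenp had 1.01, 0.96 and 0.81.

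The spindle checkpoint and anaphase-promoting complex held both large and small changes. Ube2c stood at 194 and 189.9 CPM in unirradiated wild-type spleens and 183 and 203 in unirradiated mutant spleens, against 981 and 645 in irradiated wild types and 1289 and 174 in irradiated mutants. The groups did not overlap in wild types and the log2 fold change was 2.08 ± 0.79 (SE), the largest of the 40. Bub1, a checkpoint kinase at kinetochores, measured 41.0 and 34.0 CPM (unirradiated wild type), 54.3 and 44.4 (unirradiated mutant), 108 and 46.7 (irradiated wild type) and 113 and 27.1 (irradiated mutant). Cdc20, which the checkpoint holds back and which activates the complex, was at 85.1 and 70.9 CPM in the unirradiated wild types, 98.4 and 111 in the unirradiated mutants, 179.6 and 84.1 in the irradiated wild types, and 200.3 and 43.6 in the irradiated mutants. Bub1 was higher in both irradiated wild-type libraries, whereas for Cdc20 replicate 2 lay between the unirradiated libraries. Their log2 fold changes were 1.05 and 0.76, and that of Bub1b, the BubR1 checkpoint protein, was 0.45, the third lowest of the 40.

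Cenpa, the histone variant that marks centromeres, was at 124 and 114 CPM in the unirradiated wild types, 139.7 and 143 in the unirradiated mutants, 334 and 190.4 in the irradiated wild types, and 453 and 77.7 in the irradiated mutants. It was higher in both irradiated wild-type libraries, with a log2 fold change of 1.14. The 6 kinetochore genes ranged in wild types from 1.13 for Ndc80 to 1.71 for Spc25, subunits of the same microtubule-binding complex. Kif11, the motor that pushes spindle poles apart, stood at 157 and 102 CPM in unirradiated wild-type spleens and 197 and 149.9 in unirradiated mutant spleens, against 409 and 188 in irradiated wild types and 531 and 80.7 in irradiated mutants. Its irradiated wild-type libraries were also above the unirradiated ones, at a log2 fold change of 1.21. The motors and spindle proteins spread more widely: Nusap1, which bundles spindle microtubules, had 1.60, whereas Kif20a, a motor of the late spindle, had 0.09. Anln, a scaffold of the contractile ring, measured 55.2 and 34.8 CPM (unirradiated wild type), 59.7 and 53.5 (unirradiated mutant), 184 and 82.5 (irradiated wild type) and 195 and 35.3 (irradiated mutant). It stood with the other cytokinesis genes, whose median log2 fold change in wild types was 1.23, from 1.11 for Kif23 to 1.72 for Ect2, the activator of RhoA at the cleavage site.

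Mki67 was at 1037 and 623 CPM in the unirradiated wild types, 1288 and 946 in the unirradiated mutants, 3709 and 2039 in the irradiated wild types, and 5095 and 703 in the irradiated mutants. Top2a, the topoisomerase that untangles sister chromatids, stood at 453 and 293 CPM in unirradiated wild-type spleens and 472 and 445 in unirradiated mutant spleens, against 1056 and 468 in irradiated wild types and 1104 and 244 in irradiated mutants. Both irradiated wild-type libraries were above the unirradiated ones for both genes, and the log2 fold changes were 1.79 ± 0.83 (SE) and 1.03 ± 0.70 (SE). The transcription factors were the role with the smallest changes. Foxm1, an activator of G2 genes, measured 44.6 and 30.4 CPM (unirradiated wild type), 49.4 and 60.0 (unirradiated mutant), 71.2 and 49.9 (irradiated wild type) and 89.5 and 29.1 (irradiated mutant). Mybl2, the B-Myb subunit that works with the same promoters, was at 54.6 and 40.5 CPM in the unirradiated wild types, 56.4 and 64.2 in the unirradiated mutants, 60.8 and 32.9 in the irradiated wild types, and 80.8 and 13.1 in the irradiated mutants. Mybl2 was the only member with no higher mean in irradiated wild types (log2 fold change -0.02 ± 0.71 (SE)), with its 2 irradiated libraries on either side of the unirradiated ones.

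Irradiated mutants had no common direction. Every member was higher in replicate 1 than in both unirradiated mutant libraries, and 39 of 40 were lower in replicate 2 than in both. No member therefore separated the groups, against 26.9% of all genes whose irradiated mutant libraries were both higher. On the group means 37 members had a log2 fold change above 0 (56.3% of all genes did), with a median of 0.81 against 0.15 over all genes. With raw library totals in place of TMM, 27 were above 0 and the median was 0.20, where the median of all genes moved to -0.25. The largest were Ube2c at 1.92 ± 0.78 (SE), Birc5 at 1.91 ± 0.75 (SE) and Ccna2 and Spc25 at 1.58 each, and the lowest Mybl2 at -0.37, Kif20a at -0.35 and Bub1b at -0.06. None was called by edgeR's quasi-likelihood test (smallest adjusted p 0.195; 0.6% of genes were called), DESeq2 or limma-voom. At an unadjusted p under 0.05, Birc5 and Ube2c were higher, against 13.4% of all genes.

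Which irradiated mutant library was kept decided the result. Without replicate 2, 24 members were called higher in mutants (11.0% of all genes) and the median was 1.40; without replicate 1, Cdc25c and Mybl2 were called lower (2.07% of genes) and the median was -0.94. In those fits the remaining library of the group was assumed to vary like the other groups. Leaving out either library also changed the wild-type result through the shared spread: 16 members were called higher without replicate 2 (6.98% of all genes) and 15 without replicate 1 (6.29%). Without the filter on low counts 12 were called higher in wild types (2.67% of genes) and 4 in mutants (4.15%), Birc5, Ccna2, Spc25 and Ube2c being in both. With only the 4 wild-type libraries in the fit, 7 were called higher (3.62% of all genes): Birc5, Ccna2, Cenpf, Mki67, Nusap1, Spc25 and Ube2c.

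**Figure D2:**
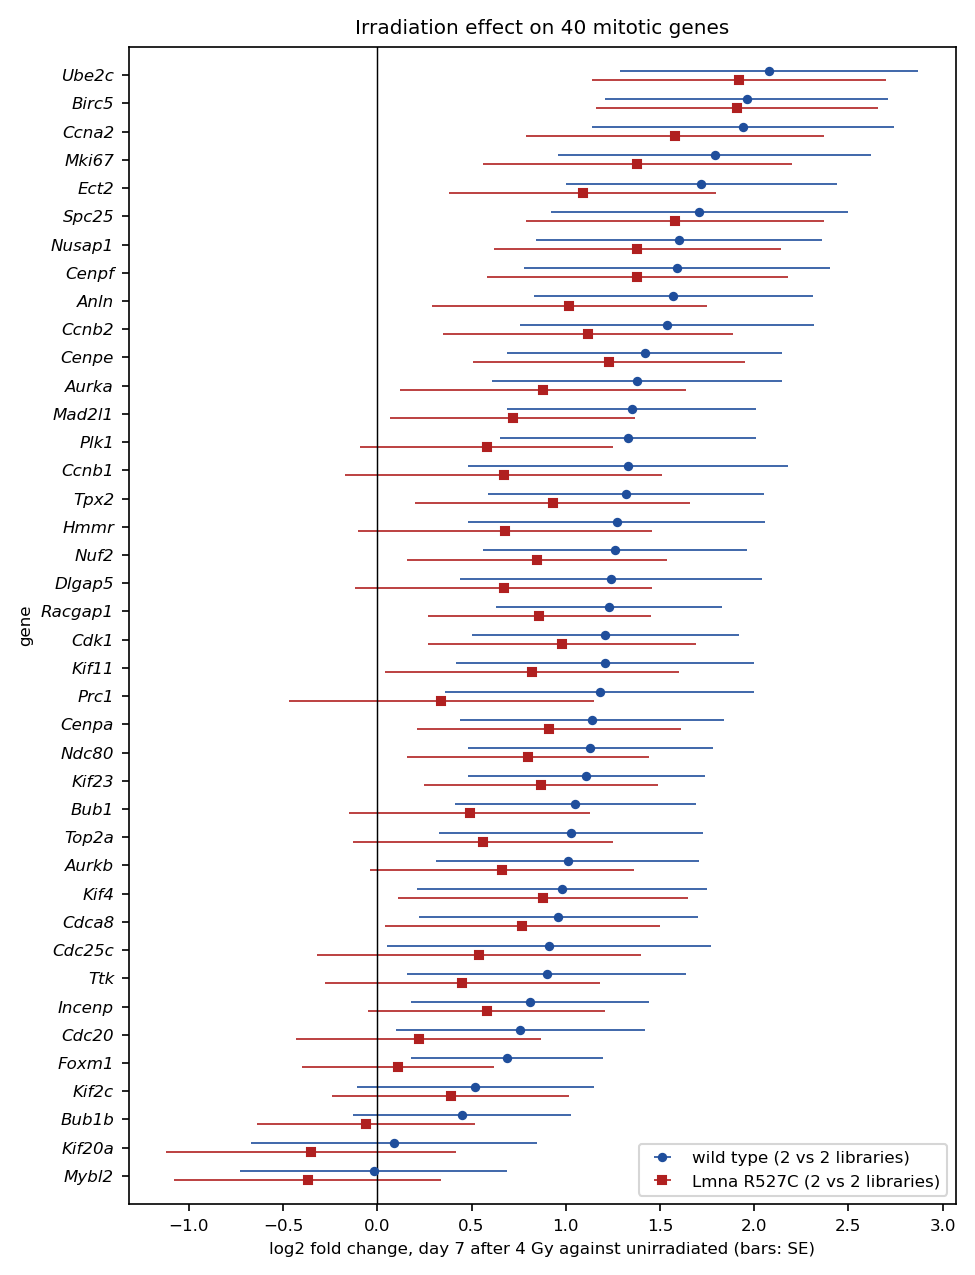
Log2 fold change of each of the 40 mitotic genes between day 7 after 4 Gy and day 0, in wild types and in Lmna R527C mutants (edgeR quasi-likelihood fit of 8 libraries; bars are standard errors). Ube2c, Birc5 and Ccna2 lie at the high end in both genotypes and Mybl2 and Kif20a at the low end; no gene passed the test.

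The genotypes were compared next without irradiation, which asks whether the mutation alone goes with more or less mitotic RNA. The mean of 39 of 40 members was higher in unirradiated mutants (46.7% of all genes were), by a small amount: the median log2 fold change was 0.34, against -0.02 over all genes. That median was 0.63 without unirradiated wild-type replicate 1 and 0.13 without replicate 2. For 22 of the 40 both mutant libraries were above both wild-type libraries, against 20.8% of all genes. Foxm1, for example, was at 49.4 and 60.0 CPM in mutants and 44.6 and 30.4 in wild types. The largest changes were Hmmr, a spindle-assembly protein, at 0.62 ± 0.78 (SE), and Ttk, a checkpoint kinase, at 0.56 ± 0.74 (SE). The smallest were Birc5 and Ube2c, the 2 genes with the largest irradiation change, at 0.00 and 0.01. None was called by edgeR's quasi-likelihood test (0.0% of genes were), DESeq2 or limma-voom, and none had an unadjusted p under 0.05 (2.24% of genes had). With the percent of counts on 39 erythroid genes as a covariate (on the log2 scale), the median was 0.54 and 12 had an unadjusted p under 0.05 (7.47% of genes had). With only the 4 unirradiated libraries in the fit 10 had (15.3% of genes). Marker genes of other cells differed between the genotypes beside these values. All 12 granulocyte genes, 7 granulocyte precursor genes and 10 plasma cell genes were higher in both mutant libraries, against 20.8% of all genes. Granulocyte genes took 0.711 and 1.31% of counts in unirradiated mutants and 0.202 and 0.158% in wild types, precursor genes 0.0581 and 0.156% against 0.0233 and 0.0191%, and plasma cell genes 0.363 and 0.306% against 0.124 and 0.142%. Lower in both mutant libraries were 14 of 15 T cell and 13 of 15 B cell genes, against 25.0% of all genes, with T cell shares of 0.116 and 0.104% against 0.144 and 0.162% and B cell shares of 0.763 and 0.79% against 0.936 and 1.02%. Their part in the mitotic values was not tested. The 39 erythroid genes took 1.38 and 1.09% of counts in mutants and 1.61 and 1.21% in wild types, so the genotypes overlapped.

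After irradiation, the 40 genes had no common difference between genotypes. The median log2 fold change, mutant over wild type, was -0.04, against 0.02 over all genes, and 16 of 40 were above 0 (2 of 40 with raw library totals), as were 51.6% of all genes. No member separated the groups, against 10.4% of all genes higher and 7.46% lower in mutants: replicate 2 of the mutants was below both wild types for all 40 genes and replicate 1 above both for 38. The highest were Cenpe, a kinetochore motor, at 0.23 ± 0.71 (SE), and Kif2c, a microtubule depolymerase, at 0.19, and the lowest Aurka and Prc1, which bundles the central spindle, at -0.39 each. edgeR's quasi-likelihood test, DESeq2 and limma-voom called none (0.0% of genes in edgeR), and none had an unadjusted p under 0.05 (4.02% of genes had). The median was -1.74 without replicate 1, with 5 members called lower (1.49% of genes), and 0.67 without replicate 2. The test of whether irradiation acted differently in the genotypes also called no member and no other gene (0.0%), and none of the 40 had an unadjusted p under 0.05 (1.6% of genes had). All 40 point estimates were below 0, where 54.2% of all genes were above it, with a median of -0.39 against 0.05, from -0.85 ± 1.15 for Prc1 to -0.05 ± 1.02 for Birc5. Their median was 0.31 without irradiated mutant replicate 2 and -2.10 without replicate 1, so neither its sign nor its size is settled by these libraries.

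The members were then set beside the erythroid share of each library, the percent of counts on 39 erythroid genes without globins. It was 1.61 and 1.21% in unirradiated wild types and 1.38 and 1.09% in the unirradiated mutants, 3.97 and 3.26% in the irradiated wild types, and 5.69 and 0.827% in irradiated mutants. The 3 libraries with the most mitotic RNA were the 3 with the most erythroid RNA, and the library with the least of one had the least of the other. As the 3 high libraries form a cluster, no correlation over all 8 is given. Within every group, the replicate with the higher erythroid share also had the higher mitotic share, in 4 of 4 groups. Replicate 1 over replicate 2 was also taken for the mitotic level and for the erythroid share. The mitotic level is the geometric mean of the 40 genes in TMM-scaled CPM, whereas the share is of unscaled counts. The 2 ratios were 1.4 and 1.34 in unirradiated wild types and 1.06 and 1.27 in the unirradiated mutants. They were 2.04 and 1.22 in the irradiated wild types, and 5.59 and 6.88 in irradiated mutants. As the measures are unlike, the closeness of the 2 ratios does not measure proportion. All 40 members were higher in replicate 1 in 3 of the groups and 26 of 40 in unirradiated mutants, where 45.9 to 48.7% of all genes were.

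The link with the erythroid share was not a fixed proportion. Mitotic counts per erythroid count were 0.339 and 0.292 in unirradiated wild types and 0.454 and 0.495 in unirradiated mutants. They were 0.301 and 0.215 in irradiated wild types, which overlapped the unirradiated ones, and 0.226 and 0.389 in irradiated mutants, both below the unirradiated mutants. The 4 globin genes gave another order: replicate 2 exceeded replicate 1 in globin share in both wild-type groups, 4.56 against 2.63% and 6.17 against 4.28%, opposite to the mitotic level. It was 1.99% in both unirradiated mutant libraries, and in irradiated mutants it was 10.3% in replicate 1 and 1.3% in replicate 2, the same way as the mitotic level. Globin RNA is most abundant in late erythroid cells and reticulocytes, which no longer divide.

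**Figure D3:**
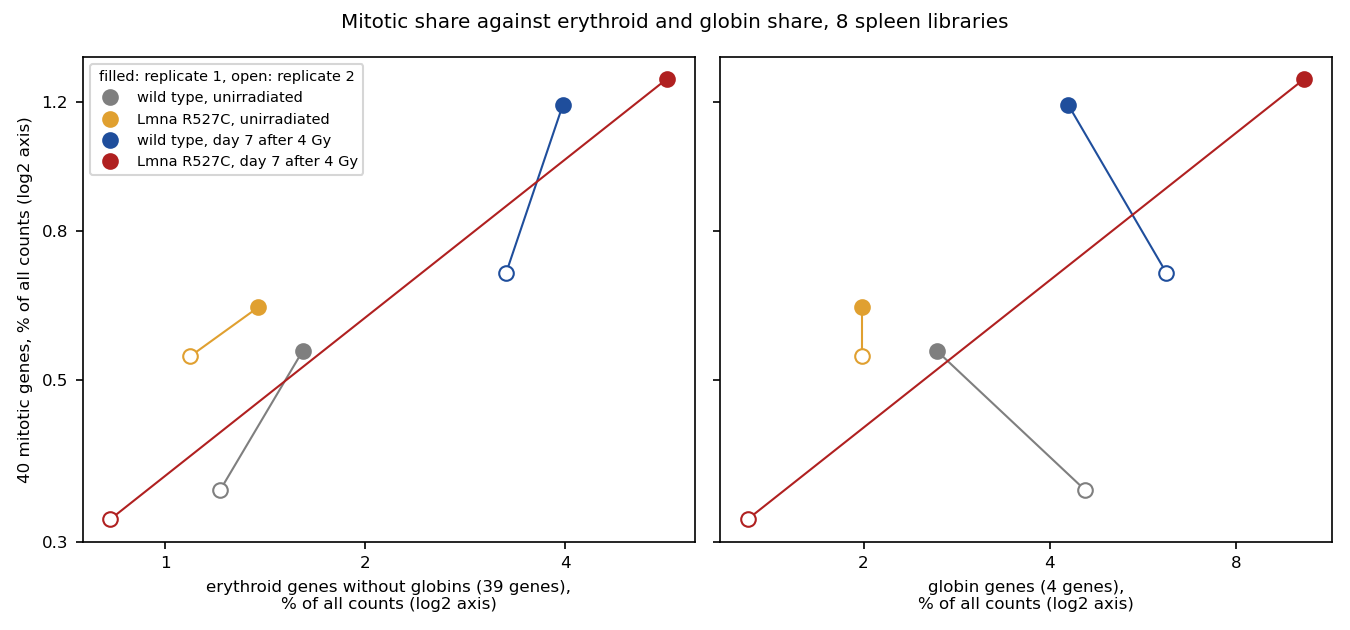
Percent of counts on the 40 mitotic genes (vertical, log2 axis) against the percent on 39 erythroid genes without globins (left) and on 4 globin genes (right) in each of the 8 libraries; lines join the 2 replicates of a group, filled points are replicate 1. Every line slopes up on the left, and the irradiated mutant pair spans 0.827 to 5.69% erythroid; on the right the wild-type lines slope down.

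A slope on log2 of the erythroid share, fitted with a term for each group, was positive and passed the test for all 40 members, against 11.9% of all genes (edgeR quasi-likelihood, largest adjusted p 0.00953). The median slope was 0.93 log2 units per doubling of the erythroid share, against -0.05 over all genes. The 38 erythroid genes tested, which belong to the share itself, had a median slope of 1.24 in the same fit. Levels were TMM-scaled and the share was not, so the slopes do not measure proportion. Among the members, slopes were steepest for Cdc25c (1.22 ± 0.16, SE), Cenpf (1.08 ± 0.13), a large kinetochore protein, and Ccnb1 (1.08 ± 0.17). The shallowest were Foxm1 (0.59 ± 0.13), Bub1b (0.66 ± 0.15) and Racgap1 (0.73 ± 0.13), a subunit of centralspindlin. The calls rested on the irradiated mutant pair. Without either of its libraries no slope was called (0.0% of genes were), although all 40 stayed above 0 with a median of 1.48, and 17 had an unadjusted p under 0.05 (4.35% of genes had without replicate 2). With the replicate number as a block, 16 of 40 were called (3.34% of all genes) and the median was 0.79. With the globin share in place of the erythroid share none was called, nor was any other gene (0.0%), and 31 had an unadjusted p under 0.05. Nor was the relation particular to erythroid genes: the same 40 genes were called with a negative slope on the T cell share (median -0.75; 16.6% of genes called lower) and on the stroma share (median -0.91; 18.5%). On the B cell share 27 were called lower (8.99% of genes), and on the macrophage share none. These shares change together in the irradiated mutant pair, so what the mitotic genes follow within it cannot be told apart.

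**Figure D4:**
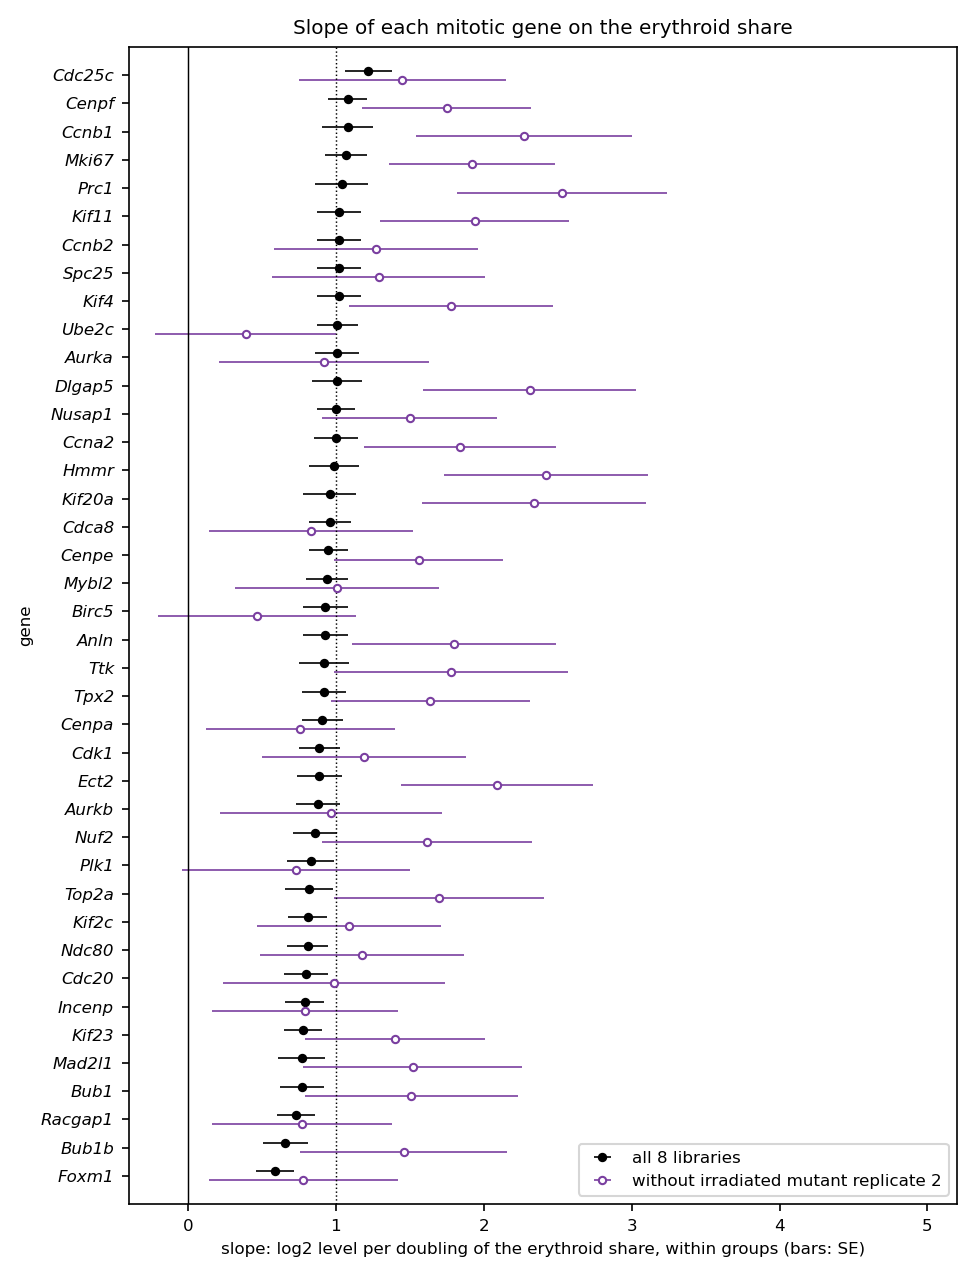
Slope of each of the 40 mitotic genes on log2 of the erythroid share within groups (horizontal, log2 level per doubling of the share; bars are standard errors), with all 8 libraries (black) and without irradiated mutant replicate 2 (purple). With all libraries the slopes run from 0.59 for Foxm1 to 1.22 for Cdc25c; without that library they run from 0.39 for Ube2c to 2.53 for Prc1 and their errors widen.

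With the erythroid share in the model, the median irradiation difference of the mitotic genes was close to 0 in wild types and below 0 in mutants. The median log2 fold change in wild types went from 1.22 to -0.04, and in mutants from 0.81 to -0.47. Single genes lay on both sides of 0. In wild types they ran from -1.33 ± 0.34 (SE) for Mybl2 to 0.67 ± 0.33 for Ube2c. In mutants they ran from -1.68 ± 0.32 for Mybl2 to 0.58 ± 0.3 for Birc5. Mybl2 was called lower in both genotypes in this fit, and Cdc25c and Kif20a in mutants (edgeR quasi-likelihood, adjusted p under 0.05). That was 1 of 40 in wild types and 3 of 40 in mutants. Both counts were close to the share of all genes called lower, 1.96% in wild types and 6.52% in mutants. The slope used in this fit comes mainly from the irradiated mutant pair, as above. Without either library of that pair the median slope was 1.48 in place of 0.93. The adjusted differences were not refitted without them, so the medians of -0.04 and -0.47 are not settled.

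Genes acting beside the 40 were described from lists chosen by function. Of 68 other mitotic genes, none was called in either irradiation comparison by edgeR's quasi-likelihood test, with median log2 fold changes of 1.14 in wild types and 0.84 in mutants, and 64 were called higher with the erythroid share (11.9% of all genes were). Of these, Cenpw, a centromere protein, measured 12.1 and 13.5 CPM (unirradiated wild type), 13.2 and 16.7 (unirradiated mutant), 82.9 and 41.2 (irradiated wild type) and 86.5 and 23.4 (irradiated mutant). All 29 DNA replication genes had a log2 fold change above 0 in irradiated wild types (54.2% of all genes did), with a median of 0.93. In irradiated mutants 23 of 29 did (56.3% of all genes), with a median of 0.62. None was called in either comparison, and 27 were called higher with the erythroid share, against the same 11.9%. Rrm2, a subunit of the enzyme that makes DNA precursors, stood at 259.6 and 202 CPM in unirradiated wild-type spleens and 279.5 and 283 in unirradiated mutant spleens, against 1313 and 639 in irradiated wild types and 1357 and 206 in irradiated mutants. Among 18 genes of the Rb, E2F and DREAM families, which repress or activate the cell cycle promoters, 12 were called higher with the erythroid share (11.9% of all genes). E2f2, an E2F with a known role in red cell maturation, was at 279 and 244 CPM in the unirradiated wild types, 282 and 282 in the unirradiated mutants, 908 and 574 in the irradiated wild types, and 1425 and 133 in the irradiated mutants. The 7 G1 genes (cyclins, kinases and the transcription factor Myc) did not move together, with medians of 0.17 in wild types and -0.17 in mutants and none called.

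Of 16 inhibitors and brakes of the cycle, 1 was called after irradiation in mutants (0.6% of all genes were) and none in wild types (0.0577%). Cdkn1a (p21), the p53-induced inhibitor of cyclin-dependent kinases, was at 7.52 and 8.35 CPM in the unirradiated wild types, 6.37 and 10.7 in the unirradiated mutants, 49.2 and 49.6 in the irradiated wild types, and 158 and 62.5 in the irradiated mutants. All 4 irradiated libraries were above all 4 unirradiated ones, unlike the mitotic genes. Its log2 fold change was 3.68 ± 0.50 (SE) in mutants (adjusted p = 0.0317, edgeR quasi-likelihood) and 2.64 ± 0.48 in wild types (adjusted p = 0.116). In the irradiated mutant library with few mitotic transcripts Cdkn1a was at 62.5 CPM, and in the one with many at 158. Cdkn2a, which encodes p16 and Arf, measured 0.835 and 1.83 CPM (unirradiated wild type), 0.829 and 1.68 (unirradiated mutant), 1.44 and 3.0 (irradiated wild type) and 7.47 and 7.58 (irradiated mutant). It was highest in the 2 irradiated mutant libraries, at nearly equal levels, with a log2 fold change of 2.58 ± 0.64 and an edgeR quasi-likelihood adjusted p of 0.104. Gadd45a, a stress-response gene, stood at 55.8 and 65.9 CPM in unirradiated wild-type spleens and 56.6 and 50.4 in unirradiated mutant spleens, against 473 and 324 in irradiated wild types and 848 and 93.0 in irradiated mutants, and was called higher with the erythroid share (slope 1.11 ± 0.15, edgeR quasi-likelihood adjusted p 0.00061).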

How the data were processed

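Spleen RNA was sequenced in 8 libraries, 4 groups of 2. The deposited table holds raw gene counts, whole numbers with no normalization by the authors, for 52636 mouse gene IDs. The tools named in the submitters' processing notes are featureCounts, Subread and Trim Galore, with builds hg38 and mm10, and the mouse build was taken for this table; their versions, the annotation and the strand setting were "not given in the sources used here". Symbols (52403 IDs), exon lengths and gene positions come from GENCODE annotation of GRCm38, and promoters from RefSeq.

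Genes were kept by edgeR's filterByExpr (minimum count 10, minimum total 15), scaled by TMM and fitted in 1 quasi-likelihood model of the 8 libraries with 4 group terms (4 residual degrees of freedom), in R 4.3.3 with edgeR 4.0.16; p-values were Benjamini-Hochberg adjusted over 17327 genes with a threshold of 0.05. SE is the log2 fold change over the square root of its F statistic. The erythroid fit added log2 of the erythroid share (3 residual degrees of freedom). A simple median describes the list, with no test. The fits were tested on simulated data. DESeq2 1.42.0 and limma 3.58.1 (voom) were alternatives, with other scalings, no filter, only the groups compared, a replicate block and leaving out each library; voom with library weights, 20 erythroid-restricted genes, and the T cell, B cell, macrophage and stroma shares were chosen after seeing the data.

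Values in every library are given for 16 members chosen by role, and in each comparison for the 3 highest and 3 lowest log2 fold changes or slopes among the rest by size; up to 3 genes with the smallest p stand for each other list. Ect2, genes called only under an alternative and genes named by rank were picked after their values were seen. The members and lists were chosen with earlier results of these data known. Printed promoters hold both motifs and no annotated exon. Counting error alone limits values near 3 counts per library.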

Additional observations from a re-analysis of the deposited data

How the results depend on the processing

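With 2 libraries a group, the calls depended on the irradiated mutant pair. Its replicates differed in the mitotic, erythroid and T cell shares, among others. They differed little in the G1 genes (0.0871 and 0.0912% of counts) and the macrophage genes (0.273 and 0.31%). Under the other scalings (RLE, raw totals, totals without erythroid and globin genes) the number of members called was 0 in all 5 comparisons. Raw totals moved the median of all genes to -0.25 in both irradiation comparisons and the members' medians to 0.83 in wild types and 0.20 in mutants. Without the filter on low counts 12 members were called in irradiated wild types (2.67% of all genes higher) and 4 in irradiated mutants (4.15%). A fit of only the groups compared called 7 in wild types, and voom with library weights 2, Birc5 and Ube2c (2.29% of genes higher).

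With the erythroid share as a covariate the medians were -0.04 in irradiated wild types, -0.47 in irradiated mutants, and 0.54 and 0.20 for genotype without and after irradiation. These medians were not refitted with a library left out. The irradiation calls were 1 in wild types (1.96% of all genes called lower) and 3 in mutants (6.52%). For the slope, the globin share gave 0 called (31 at an unadjusted p under 0.05), the irradiation terms alone 39, and the 20 erythroid-restricted genes 40. By sign alone the globin share ran with the mitotic level in 2 of 4 groups, but in 1 of these, the unirradiated mutants, it was 1.99% in both libraries. The cause of these differences was not tested. Promoter windows from 150 bases before the start gave 24 of 34 promoters with both motifs, as the longer ones did.

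Leaving out 1 library at a time, the members called ran from 0 to 16 for irradiation in wild types, 0 to 24 in mutants, 0 to 5 for genotype after irradiation, 0 to 0 for genotype without irradiation and for the genotype difference in the irradiation effect, and 0 to 40 for the slope. The medians ran from 0.52 to 1.67, from -0.94 to 1.40, from -1.74 to 0.67, from 0.13 to 0.63, from -2.10 to 0.31 and from 0.90 to 1.48 in the same order. Reversals came without irradiated mutant replicate 1 (-0.94 in mutants), without replicate 2 (0.67 for genotype after irradiation, 0.31 for the difference) and without irradiated wild-type replicate 1 (0.57 and 0.22 for the same). Without unirradiated wild-type replicate 1 the unirradiated genotype median was 0.63.

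The labels share replicate numbers but do not say that a number marks a pair of mice. The correlation of replicate differences between groups over genes ran from 0.0349 to 0.465. With the replicate block, 0 members were called in the 5 comparisons, the medians were 1.12 and 0.44 for irradiation in wild types and mutants, -0.23 and 0.42 for genotype with and without irradiation and -0.66 for the difference, and 16 of 40 slopes were called (3.34% of genes higher).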
